A study of Mus musculus with 6 samples.

Results

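The genes described here are 10 receptors and ligands that control the growth of blood vessels, out of 32285 genes in the count table. They were chosen by name, as the vascular endothelial growth factor gene *Vegfa* with its receptor genes *Flt1*, *Kdr* and *Flt4*, the angiopoietin genes *Angpt1* and *Angpt2* with the receptor genes *Tek* and *Tie1*, and the apelin gene *Apln* with its receptor gene *Aplnr*. All 10 were found in the table. They were read in scRNA-Seq libraries of the striatum of male C57BL/6 mice (C57BL/6Jax in the study's methods), all wild-type, with 3 libraries from pups at postnatal day 3 (P3) and 3 from adults at 3 months (3m). All cells had been enriched on beads by ACSA2, an antigen on the astrocyte surface, so that vascular cells were present only as far as they passed this step. Each preparation pooled the tissue of several animals, and the droplet libraries used 10x Chromium 3′ chemistry. The study asked how astrocytes change as they mature, and the comparison of the ages is used here to ask how the vessel-growth genes differed in astroglial, endothelial and mural cells.

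VEGF-A is a secreted growth factor that binds the receptor tyrosine kinases VEGFR2 (*Kdr*), which carries most of the growth signal in endothelial cells, and VEGFR1 (*Flt1*), which binds the ligand tightly and acts in large part as a decoy, while VEGFR3 (*Flt4*) is best known as the receptor of VEGF-C in lymphatic and sprouting endothelium. Angiopoietin 1, typically from perivascular cells, activates the endothelial receptor Tie2 (*Tek*) and stabilises vessels, angiopoietin 2 from endothelial cells modulates or blocks that signal, and *Tie1* encodes a related receptor that pairs with Tie2. Apelin is a peptide ligand of the G protein-coupled receptor APJ (*Aplnr*), and in the developing vasculature it is known as a product of endothelial tip cells, the leading cells of a sprout. In the brain, astrocytes and their precursors are a known source of VEGF-A, and vessel growth is brisk after birth and largely over in the adult.

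Promoter sequence was shown for the pair of ligand genes that rose in astroglia with age, *Vegfa* and *Apln*, and for the VEGF receptor genes *Flt1* and *Kdr*, whose age differences in endothelial clusters had opposite signs. Each is the 250 bases before an annotated transcription start in RefSeq (GRCm38.p6), in the direction of the gene, and capitals mark the core of the binding motif of hypoxia-inducible factor, ACGTG or GCGTG, searched on both strands.
Vegfa promoter, chr17:46032378-46032627, minus strand: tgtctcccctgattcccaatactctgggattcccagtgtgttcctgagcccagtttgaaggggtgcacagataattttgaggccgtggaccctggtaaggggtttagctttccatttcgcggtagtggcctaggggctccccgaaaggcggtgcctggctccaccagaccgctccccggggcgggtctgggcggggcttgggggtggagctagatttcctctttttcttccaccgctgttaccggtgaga
Apln promoter, chrX:48034854-48035103, minus strand: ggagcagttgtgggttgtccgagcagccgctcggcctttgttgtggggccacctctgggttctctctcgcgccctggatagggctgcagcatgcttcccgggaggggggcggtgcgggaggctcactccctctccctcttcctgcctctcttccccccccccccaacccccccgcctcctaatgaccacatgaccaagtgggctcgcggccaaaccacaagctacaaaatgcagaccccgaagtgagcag
Flt1 promoter, chr5:147726012-147726261, minus strand: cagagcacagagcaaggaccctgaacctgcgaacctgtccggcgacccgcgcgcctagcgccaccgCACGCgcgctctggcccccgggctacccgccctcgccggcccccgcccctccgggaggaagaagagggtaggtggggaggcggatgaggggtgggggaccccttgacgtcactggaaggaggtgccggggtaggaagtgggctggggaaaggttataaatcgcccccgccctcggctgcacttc
Kdr promoter, chr5:75978456-75978705, minus strand: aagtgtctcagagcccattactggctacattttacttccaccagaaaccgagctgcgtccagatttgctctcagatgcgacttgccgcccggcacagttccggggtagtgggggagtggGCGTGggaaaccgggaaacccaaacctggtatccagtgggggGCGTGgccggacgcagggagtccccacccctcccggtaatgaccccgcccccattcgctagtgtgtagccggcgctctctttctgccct
No core lay in these windows of *Vegfa* and *Apln*. That of *Flt1* held 1, which starts 184 bases before the transcription start, and that of *Kdr* held 2, at 131 and 89 bases. RefSeq promoters were given for 7 of the 10 genes, and 3 of the 7 had a core in a window, *Vegfa* only at a second start within the gene. Of all 32851 promoters of the same length, 12679 (38.6%) held the motif. A match of these letters is a description and not a binding site.

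The genes lie at chr17:46016993-46032369 (*Vegfa*, minus strand), chr5:147561604-147726011 (*Flt1*, minus), chr5:75932827-75978458 (*Kdr*, minus), chr11:49609263-49652739 (*Flt4*, plus), chr4:94739289-94874976 (*Tek*, plus) and chr4:118471191-118490061 (*Tie1*, minus). *Angpt1* lies at chr15:42424723-42676977 (minus), *Angpt2* at chr8:18690263-18741562 (minus), *Apln* at chrX:48025146-48034853 (minus) and *Aplnr* at chr2:85136225-85139923 (plus). These are GRCm38 coordinates of GENCODE M21, where all 10 are protein-coding genes.

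The table held UMIs (unique molecular identifiers, tags by which copies of 1 captured transcript are counted once) in 16690 barcodes, of which 14373 were annotated cells. Totals ranged from 32193875 to 37795021 UMIs per P3 library and from 5471573 to 10522151 per 3m library, and 37 barcode sequences occurred in more than 1 library, 28 of them among annotated cells. In 3m replicate 1 the authors left 836 of 1653 barcodes out of the annotated cells for a mitochondrial share of 10% or more. Astroglial cells made up 79.8 ± 5.18% of P3 cells and 34.0 ± 6.56% of 3m cells (mean ± SD, n = 3 libraries each). Below, CPM means a gene's UMIs in every 1000000 UMIs that a group of cells held in 1 library. A gene is called different between the ages at a Benjamini-Hochberg padj of at most 0.05 and an absolute log2FC of at least 1 in edgeR's quasi-likelihood test of UMIs summed per library, with log2FC as 3m over P3.

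Across the clusters named by the authors, 8 of the 10 genes had their highest mean CPM in a cluster named endothelial (END), *Vegfa* in adult astrocytes (AST_3m_5) and *Angpt1* in the P3 cells of cluster PER_6, named pericytes. This order, over 25 pairs of a cluster and an age with a library of at least 20 cells, is a description with no test, since the clusters were made from the same counts. *Flt1* was at 2232 CPM in END_17, the endothelial cluster of 3m, and at 649 in END_7, that of P3. *Tek* followed the same order (232 and 80.3 CPM), and *Kdr* the opposite one (520 CPM in END_7, 275 in END_17). The libraries of the 2 clusters did not overlap for these genes, and how many of all genes separate so was not counted. *Flt4* (45.2 and 44.1 CPM in END_17 and END_7) and *Tie1* (166 and 161 CPM) differed between the clusters by less than their spread over libraries. *Apln* led in END_7 at 361 CPM, *Angpt2* in END_12 at 88.8 CPM and *Aplnr* in END_13 at 92.8 CPM. END_12 and END_13 were shallow, with a median of 1251 and 1362 UMIs per cell against 26510 in END_7, and 346 of the 349 cells of END_12 came from P3 replicate 3. In those 346 cells the 8 endothelial markers, described next, summed to 2145 CPM, below the 8 astrocyte markers (3719 CPM) and the 5 erythroid markers (57864 CPM). Erythroid markers also lay above the endothelial ones in every library of END_7 and END_17, at 9591 to 26883 CPM at P3 and 19189 to 42669 at 3m. The astrocyte markers were at 221 to 224 CPM at P3 and 388 to 1086 at 3m there. The astrocyte markers thus go against the name of END_12, which is kept here as a label only. Without this cluster *Angpt2* was highest in END_7, at 46.1 CPM. *Angpt1* was at 37.8 ± 1.99 CPM in PER_6 at P3 (n = 3) and at 29.6 ± 26.1 in the astrocyte cluster AST_P3_11, which overlapped.

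**Figure D1:**
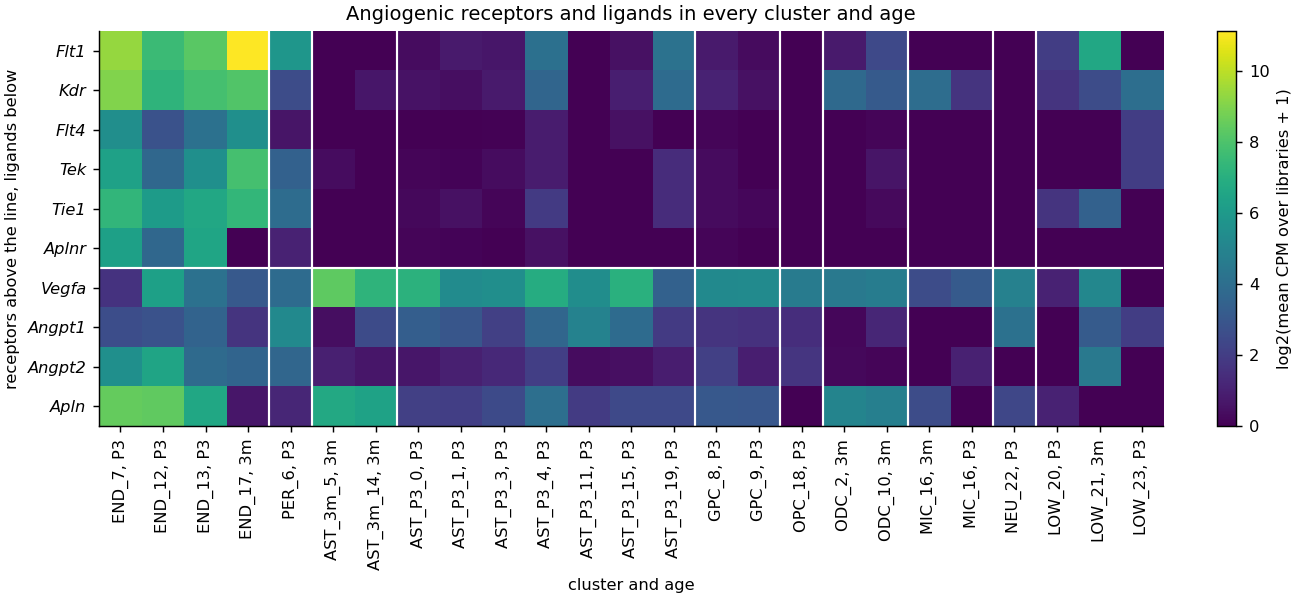
Heat map of the 10 genes (rows, receptors above the line and ligands below) in each cluster and age with a library of at least 20 cells (25 columns), coloured by log2(mean CPM over libraries + 1). The receptor rows are bright in the endothelial columns, while *Vegfa* is brightest in the astrocyte column of cluster AST_3m_5 at 3m, where its mean was 330 CPM.

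The endothelial clusters were checked against their markers. In END_7 and END_17 all 8 endothelial markers examined, among them *Cldn5*, *Pecam1* and *Cdh5*, had UMIs at both ages, with a summed level of 6066 to 7574 CPM per library at P3 and 12519 to 18888 at 3m. The same sums also held all 8 pericyte markers, at 2531 to 4121 CPM at P3 and 6985 to 7331 at 3m. In END_13 the endothelial markers summed to 4237 CPM in P3 replicate 1 and 3785 in P3 replicate 3, and the astrocyte markers to 2400 and 1142 CPM. In the astroglial sums the 8 astrocyte markers together were at 4535 to 5695 CPM at P3 and 11014 to 11819 at 3m, and the 8 endothelial markers at 21.4 to 45.7 and 1.73 to 8.15 CPM. In cluster PER_6 the pericyte markers summed to 12352 to 17560 CPM at P3, but 2 of the 8, *Kcnj8* and *Abcc9*, were at 0 in its 3m cells. The 5 smooth muscle markers summed there to 5082 to 13578 CPM at P3. At 3m they were at 6394 to 31439 CPM, against 6403 to 9424 CPM for the pericyte markers. The name of PER_6 is therefore kept as a label for mural cells.

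Ligands of astroglia were compared first, since these cells were the target of the enrichment. *Vegfa* and *Apln* rose from P3 to 3m in the summed astroglial cells, and neither angiopoietin gene was called. The sums held 8874 P3 cells, with 22327104 to 30617140 UMIs per library, and 1118 3m cells, with 1157485 to 1843998. Astroglial cells of the ages lay almost wholly in different clusters, 1111 of the 3m cells and 17 of the P3 cells in AST_3m_5 and AST_3m_14, and 1086 P3 cells were glial progenitors of GPC_8 and GPC_9, clusters without 3m cells. Without the progenitors, an alternative chosen after seeing the data, the log2FC was 1.76 for *Vegfa* and 4.88 for *Apln*, and both were called. *Vegfa* stood at 104, 70.5 and 80.5 CPM in P3 replicates 1, 2 and 3, and at 335, 235 and 292 CPM in 3m replicates 1, 2 and 3. Every 3m library lay above every P3 library. Its log2FC was 1.95 (SE 0.19, padj = 3.16e-06 by edgeR), and 17 of 17 alternative settings kept the call.

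*Apln* was at 4.84, 3.63 and 5.57 CPM in the P3 libraries and at 95.9, 92.2 and 106 CPM in the 3m libraries, again with no overlap. The log2FC of 4.59 (SE 0.19, padj = 3.86e-09 by edgeR) was kept by 17 of 17 alternatives. Of the 10 genes, 4 had enough UMIs to be tested in astroglia and 2 were called, both higher. Of all 13530 genes tested there, 32.1% were called and 15.8% were called higher, and the median log2FC was 0.85 for the 4 genes and -0.04 for all. *Angpt1* was at 7.79, 5.49 and 7.12 CPM at P3, and at 3m all 9 of its UMIs lay in replicate 2 (4.88 CPM). By cluster, 8 of the 9 lay in AST_3m_14 and 1 in AST_3m_5. The *Angpt1* log2FC of -1.58 (SE 0.65, padj = 0.059 by edgeR) was not called. It passed in 7 of 16 alternatives, among them those without 3m replicate 2 (-9.75, where no 3m UMI was left) and with telencephalic sub-clusters alone (-4.12), and under the stricter cell filter it was -0.24. *Angpt2* had 94 UMIs at P3 and 4 at 3m (log2FC -0.25, SE 0.75, padj = 0.81 by edgeR).

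The 6 receptor genes were at the edge of detection in astroglia and were not tested. *Flt1* had 88 UMIs in the 8874 P3 cells, 64 of them in P3 replicate 3 and 46 in sub-cluster 12, described below, and 0 in the 1118 3m cells, which on a floor of 3 UMIs over the group was at least 1.69-fold lower at 3m. *Kdr* had 79 and 1 UMIs, *Tie1* 23 and 0, *Tek* 13 and 1, *Aplnr* 6 and 0, and *Flt4* 5 and 0. At the depth of the 3m sums a count of 3 UMIs over all libraries corresponds to 0.671 CPM, against pooled P3 levels of 1.14 CPM for *Flt1* and 1.02 CPM for *Kdr*, so differences of the receptor genes were hardly detectable at this depth.

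Markers of other cells moved with age in the same astroglial sums. The 6 oligodendrocyte markers together were at 5.23 to 6.40 CPM at P3 (2 of them at 0) and at 705 to 1861 CPM at 3m. The 6 microglia markers went from 18.3 to 24.1 CPM at P3 to 65.9 to 99.8 at 3m, with 2 of 2 tested called higher. Called lower were 3 of 3 tested smooth muscle markers (65.4 to 142 summed CPM at P3, 6.79 to 17.3 at 3m) and 3 of 3 proliferation markers (350 to 455 at P3, 0 to 0.542 at 3m, 2 of 3 at 0). The part of these markers in the age differences was not tested. Oligodendrocytes of 3m, a class that had no P3 cell, had *Apln* at 32.6, 26.2 and 35.4 CPM and *Vegfa* at 27.4, 22.3 and 21.4 CPM, below the 3m astroglial levels of both in every library. In astroglial cells without a UMI of any endothelial, pericyte or smooth muscle marker the log2FC was 1.67 for *Vegfa* and 4.47 for *Apln*.

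**Figure D2:**
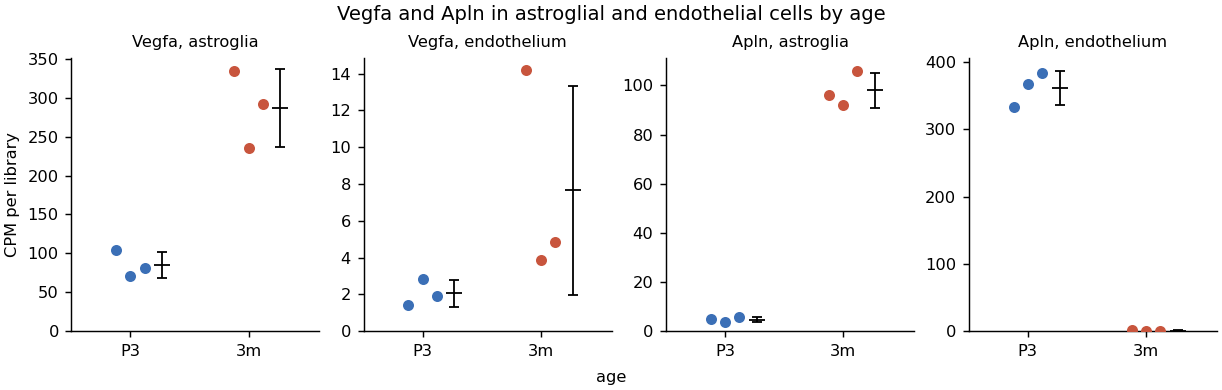
CPM of *Vegfa* and *Apln* per library (points) in astroglia and in endothelial clusters END_7 and END_17, by age, with the mean ± SD of 3 libraries beside them. *Vegfa* and *Apln* were higher in all 3m astroglial libraries than in any P3 one, and *Apln* in endothelium was between 333 and 383 CPM at P3 and between 0 and 1.78 at 3m.

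The share of cells with a UMI was compared after thinning each cell to 2000 UMIs, because 3m cells were shallower. For *Vegfa* it was 19.8, 13.5 and 15.1% of astroglial cells in the P3 libraries and 44.6, 34.4 and 42.0% in the 3m libraries. The 24.2 percentage point difference was larger than the spread between libraries (16.1 ± 3.28% against 40.3 ± 5.28%, p = 0.1, two-sided exact permutation test, which with 3 against 3 cannot give less). Without thinning the shares overlapped, at 42.4 ± 11.8% and 55.6 ± 13.4% (p = 0.2, exact permutation test). As a background, 0.353 to 0.514% of P3 and 0.304 to 1.88% of 3m endothelial cells had a *Vegfa* UMI at 2000 UMIs. Median depths were 5456 to 9665 UMIs per astroglial and 22396 to 32502 per endothelial cell at P3, and 2977 to 5326 and 4258 to 8307 at 3m. The share with *Apln* was 0.673 ± 0.0992% at P3 and 16.2 ± 2.80% at 3m in astroglia (p = 0.1, exact permutation test), whereas in endothelial cells it was 42.0, 42.4 and 45.1% at P3 and 0.430, 0 and 0% at 3m. Cells with under 2000 UMIs were left out, 48, 118 and 947 astroglial cells in the P3 libraries and 16, 141 and 55 in the 3m libraries.

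Within astroglia, levels were also read by cluster, again as a description. At P3 *Vegfa* was at 141 ± 12.7 CPM in AST_P3_0 and 133 ± 5.17 in AST_P3_15, and at 39.7 ± 6.77 in AST_P3_1 and 44.1 ± 1.13 in AST_P3_3 (n = 3 libraries each). The glial progenitor clusters GPC_8 (38.0 ± 9.37) and GPC_9 (38.7 ± 3.81) stood with the lower clusters. At 3m, AST_3m_5 was at 330 ± 19.7 CPM and AST_3m_14 at 149 ± 19.9 (n = 2 libraries), so the lower 3m cluster overlapped the higher P3 clusters. *Apln* did not share this split, at 3.32 ± 0.407 CPM in AST_P3_0, 3.12 ± 3.05 in AST_P3_1, 103 ± 7.73 in AST_3m_5 and 84.0 ± 10.4 in AST_3m_14. Among the re-clustered astroglial sub-clusters, *Vegfa* was at 322 pooled CPM in 3m sub-cluster 7, 349 in 14 and 170 in 13, but at 24.1 in 16, where *Apln* was still at 56.3. The paper proposes that 13 and 16, and several P3 sub-clusters with 12 among them, may be non-telencephalic astrocytes from outside the striatum. Telencephalic sub-clusters held 196 of the 213 astroglial cells of 3m replicate 1, 285 of 546 of replicate 2 and 309 of 359 of replicate 3. The part of brain region in these levels was not tested. One P3 sub-cluster, number 12, had *Apln* at 77.1 CPM from 32 UMIs. The endothelial receptor genes stood out in the same 284 cells, with *Flt1* at 111, *Kdr* at 81.9, *Tie1* at 21.7 and *Tek* at 9.64 CPM, where no other sub-cluster exceeded 5.41 CPM for any of the 4. Of these cells, 273 came from P3 replicate 3, and there the 8 endothelial markers summed to 1049 CPM, the pericyte markers to 1840 and the astrocyte markers to 5130. The part of the endothelial markers in this *Apln* level was not tested. Clusters AST_P3_4 and AST_P3_19 held 282 of the 284 cells, and an alternative without these clusters kept the calls of *Vegfa* and *Apln* above.

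The authors ordered astroglial cells by a pseudotime score, which has no unit and starts from cycling cells. *Vegfa* was at 15.3 to 53.2 pooled CPM in bins 2 to 12, at 108 in bin 13 and at 156 in bin 14, the last bin of P3 cells. In the bins of 3m cells, 15 to 19, it was at 201, 243, 350, 321 and 368 CPM, although bin 15 held 6 UMIs in 22 cells. *Apln* did not follow this order within P3, at 3.09 to 10.4 CPM in bins 2 to 14, and was at 51.0 to 140 CPM in bins 15 to 19. *Angpt1* was at 6.59 CPM in bin 13 and 8.74 in bin 14, and at 0 to 0.681 CPM in the 3m bins. The bins follow the paper's main trajectory, which ends in 3m sub-clusters 7 and 14. Outside it, *Angpt1* was at 6.68 pooled CPM (6 UMIs) in 3m sub-cluster 13 and at 8.04 (2 UMIs) in 16. The bins are an ordering made from the same counts, so these values carry no test.

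**Figure D3:**
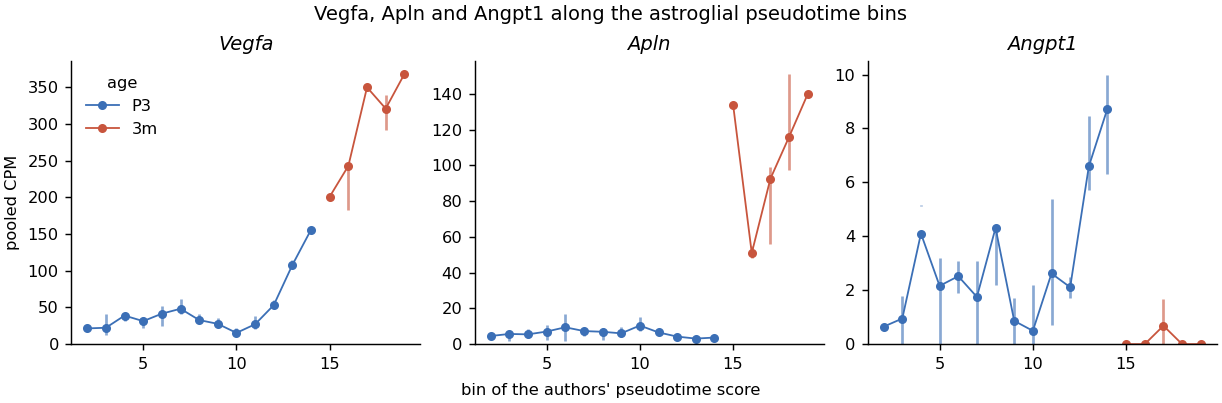
Pooled CPM of *Vegfa*, *Apln* and *Angpt1* (points joined by lines) in each bin of the authors' pseudotime score, by age, with vertical bars from the lowest to the highest library where at least 2 libraries had 20 cells in the bin. Within P3 *Vegfa* was highest in bin 14, at 156 CPM, whereas *Apln* stayed at or below 10.4 CPM in the P3 bins.

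Genes that respond to hypoxia, a known inducer of *Vegfa*, were counted in astroglia. The part of hypoxia in the *Vegfa* difference was not tested. Of 9 listed, 8 were tested, 3 were called higher, 2 lower and 3 were not called, with a median log2FC of -0.00. *Ndrg1* (6.42, padj = 7.97e-07 by edgeR) and the glucose transporter gene *Slc2a1* (2.29, padj = 3.27e-05) rose, as did the mitophagy receptor gene *Bnip3* (1.06, padj = 0.0025), which lost its call in 7 of 17 alternatives. The lactate dehydrogenase gene *Ldha* (-1.25, padj = 1.89e-04) and the oxygen-sensing hydroxylase gene *Egln3* (-2.77, padj = 2.85e-05) fell. *Ndrg1* and *Slc2a1* are also genes of oligodendrocytes and endothelium, respectively. Of 7 VEGF partners 6 were tested, with 1 higher, 1 lower and 4 not called. *Vegfd*, another VEGFR3 ligand gene, was called higher (3.88, padj = 1.98e-04 by edgeR) on 17 UMIs at P3 and 13 at 3m. *Vegfc* had 288 UMIs at P3 and 2 at 3m, and the P3 level was 8.31 times that of 3m (95% counting interval 2.28 to 68.9, padj = 0.01 by edgeR), and lost its call in 2 of 12 alternatives. Of 5 Tie and apelin partners 2 were tested and neither was called (*Foxo1*, 0.95, padj = 5.53e-04, missed the fold threshold). *Cxcr4* (-1.61) and *Unc5b* (1.93), the 2 tip cell genes of 7 that were tested, went opposite ways.

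Endothelial cells of the ages were compared between END_7, which held 605 P3 cells, and END_17, which held the 3m cells and 1 P3 cell, since no cluster held endothelial cells of both ages in number. Age and cluster can therefore not be told apart, and a rise or fall below means a difference of the 3m from the P3 sums. The part of vessel type in these differences was not tested. The VEGF receptor gene *Flt1* and the Tie2 gene *Tek* were higher at 3m and *Angpt2*, *Apln* and *Aplnr* lower. *Kdr*, *Flt4*, *Tie1* and *Angpt1* were not called. The sums held 606 P3 cells with 4200780 to 7386516 UMIs per library and 163 3m cells with 256977 to 562163. Of 9 genes tested, 5 were called, 2 higher and 3 lower, where 22.3% of all 10271 genes tested were called, 11.6% higher and 10.7% lower. The median log2FC was -0.99 for the 9 genes, also with *Aplnr* at its bound, and -0.03 for all genes. A median END_7 cell had 26510 UMIs and a median END_17 cell 5934.

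*Flt1* was at 789, 619 and 539 CPM in the P3 libraries and at 2510, 1985 and 2202 CPM in the 3m libraries. Every 3m library lay far above every P3 library, and the log2FC was 1.69 (SE 0.22, padj = 6.13e-06 by edgeR). *Kdr* was at 683, 443 and 435 CPM at P3 and at 349, 222 and 255 CPM at 3m. All 3m libraries lay below all P3 libraries, but the log2FC of -0.99 (SE 0.21, padj = 0.0013 by edgeR) stopped just short of the fold threshold. It passed in 9 of 17 alternatives, and was -0.76 without P3 replicate 1 and -1.24 without 3m replicate 1. In cells without astrocyte or pericyte marker UMIs, which left 2 to 8 cells per P3 library, it was -0.45. Here and below, that filter left the astrocyte marker *Atp1b2* out of account. *Flt4* was at 54.6, 43.6 and 34.3 CPM at P3 and 39.1, 42.8 and 53.5 at 3m, which overlapped (log2FC -0.06, SE 0.25, padj = 0.87 by edgeR).

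*Tek* was at 95.8, 82.1 and 63.1 CPM in the P3 libraries and at 263, 202 and 231 CPM in the 3m libraries, with no overlap. Its log2FC was 1.45 (SE 0.19, padj = 6.01e-06 by edgeR). *Tie1*, the partner receptor, was at 155, 169 and 158 CPM at P3 and 173, 152 and 173 CPM at 3m. These ranges overlapped, and the log2FC was -0.05 (SE 0.18, padj = 0.86 by edgeR). For *Flt4* and *Tie1* the sign changed with the scaling, to 0.03 and 0.06 with library totals alone, and neither was called in any setting.

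**Figure D4:**
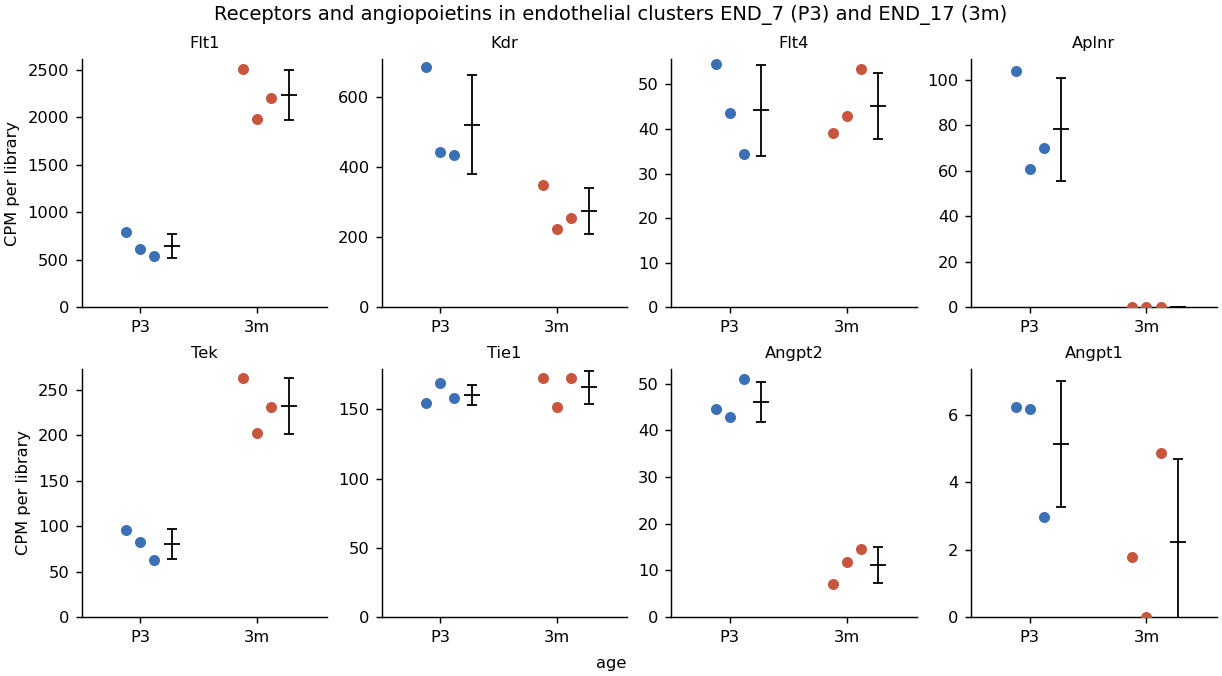
CPM per library (points) of 6 receptor and 2 angiopoietin genes in endothelial clusters END_7 (P3) and END_17 (3m), with the mean ± SD of 3 libraries beside them. Points of the ages do not overlap for *Flt1*, *Kdr*, *Tek*, *Aplnr* and *Angpt2*, and they overlap for *Flt4*, *Tie1* and *Angpt1*. The share of all genes whose points separate so was not counted.

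Among endothelial ligands, *Angpt2* was at 44.5, 42.8 and 51.0 CPM at P3 and at 7.12, 11.7 and 14.6 CPM at 3m. The ages were well apart (log2FC -2.22, SE 0.34, padj = 4.19e-05 by edgeR). *Apln* was at 333, 367 and 383 CPM at P3 and at 1.78, 0 and 0 CPM at 3m. With 6712 UMIs at P3 and 1 at 3m, the level at P3 was 443 times that at 3m (95% counting interval 79.5 to 17513, padj = 2.65e-11 by edgeR). The receptor gene *Aplnr* was at 104, 60.7 and 70.1 CPM at P3 and had no UMI at 3m. On the floor of 3 UMIs it was at least 33.2-fold lower at 3m (1506 against 0 UMIs, padj = 1.05e-07 by edgeR). *Angpt1* had 92 UMIs at P3 and 3 at 3m, a level 2.03 times as high at P3 (interval 0.672 to 10.0, padj = 0.32 by edgeR). *Vegfa* was too low to be tested, at 1.42, 2.86 and 1.90 CPM at P3 and 14.2, 3.89 and 4.87 at 3m, the last from 11 UMIs in all. These intervals and floors cover counting error only.

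The 5 calls were kept in all alternatives in which the gene was tested. *Flt1*, for example, lay between 1.56 and 1.83 in 17 alternatives and *Tek* between 1.31 and 1.77 in 16. One of these restricted both ages to cells with 2000 to 15000 UMIs, which was chosen after seeing the data. Other markers moved with age in the same sums. Proliferation markers were at 222 to 372 summed CPM at P3 and 0 to 1.78 at 3m, with 2 of 3 at 0, the oligodendrocyte markers at 0.995 to 1.90 (3 of 6 at 0) and 119 to 634, the astrocyte markers at 221 to 224 and 388 to 1086, and the erythroid markers at 9591 to 26883 and 19189 to 42669. The smooth muscle markers were at 521 to 672 summed CPM at P3 and 724 to 1423 at 3m, with 3 of 4 tested called higher, and the fibroblast markers at 58.1 to 103 and 19.5 to 78.3, with 2 of 2 tested called lower. Of the 8 endothelial markers 3 were called higher and 0 lower (median log2FC 0.63), and of the 8 pericyte markers 1 and 0 (0.49). The 1 neuron marker tested was called higher and the 1 microglia marker tested lower. The part of these markers in the differences above was not tested.

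Other genes of the pathways were counted in the same endothelial fit. Of 7 VEGF partners, 6 were tested, and 1 was higher, 1 lower and 4 not called. *Vegfc*, the main VEGFR3 ligand gene, rose (2.62, padj = 1.43e-06 by edgeR) and the semaphorin receptor gene *Plxnd1* fell (-1.44, padj = 2.38e-05), while the co-receptor gene *Nrp1* missed the fold threshold (-0.69, padj = 0.016). Of 5 Tie and apelin partners only *Ptprb* and *Foxo1* were tested. *Ptprb* encodes VE-PTP, the phosphatase that acts on Tie2, and was called higher (1.44, padj = 4.35e-05 by edgeR), and *Foxo1*, a transcription factor gene downstream of Tie2, was not (0.79, padj = 0.023).

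Tip cell genes had a median log2FC of -0.87, with 5 of 7 tested, none higher, 2 lower and 3 not called. The chemokine receptor gene *Cxcr4* (-3.64, padj = 1.23e-05 by edgeR) and the adrenomedullin gene *Adm* (-1.99, padj = 1.19e-04) fell. The Notch ligand gene *Dll4* (-0.87, padj = 0.022) and the pericyte-recruiting ligand gene *Pdgfb* (0.61, padj = 0.023) were not called. *Esm1*, not tested, had 155 UMIs at P3 and 0 at 3m, at least 3.41-fold lower on the floor of 3 UMIs. Without 3m replicate 1 the value of *Cxcr4* was -10.52.

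Arterial genes had a median of 3.13, with 3 of 5 higher and 2 not called, namely *Gkn3* (9.62, padj = 4.72e-14 by edgeR), *Bmx* (5.27, padj = 6.16e-10) and the semaphorin gene *Sema3g* (3.13, padj = 5.61e-08). Of 5 venous and capillary genes, 2 were lower and 3 not called (median -0.35). These were the amino acid transporter gene *Slc38a5* and the lipid transporter gene *Mfsd2a*, both at -2.15 (padj = 8.21e-07 and 1.39e-05 by edgeR). Of 9 endothelial transcription factor genes, 8 were tested, 1 was higher and 7 were not called (median 0.37). *Gata2* rose (2.27, padj = 3.98e-07 by edgeR), and *Sox17* (0.88, padj = 0.0046) and *Sox18* (0.84, padj = 0.0028) stayed below the fold threshold.

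Of 9 hypoxia-inducible genes, 7 were tested in endothelium, 3 were called higher and 4 were not called (median 0.89). *Ndrg1* (7.86, padj = 1.18e-11 by edgeR), *Bnip3* (1.90, padj = 2.01e-05) and *Slc2a1* (1.14, padj = 0.0053) rose. The call of *Slc2a1* was lost in 3 of 17 alternatives, among them those without 3m replicate 1 (0.64) or P3 replicate 3 (0.95). None of the 3 lymphatic genes was tested, for too few UMIs.

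**Figure D5:**
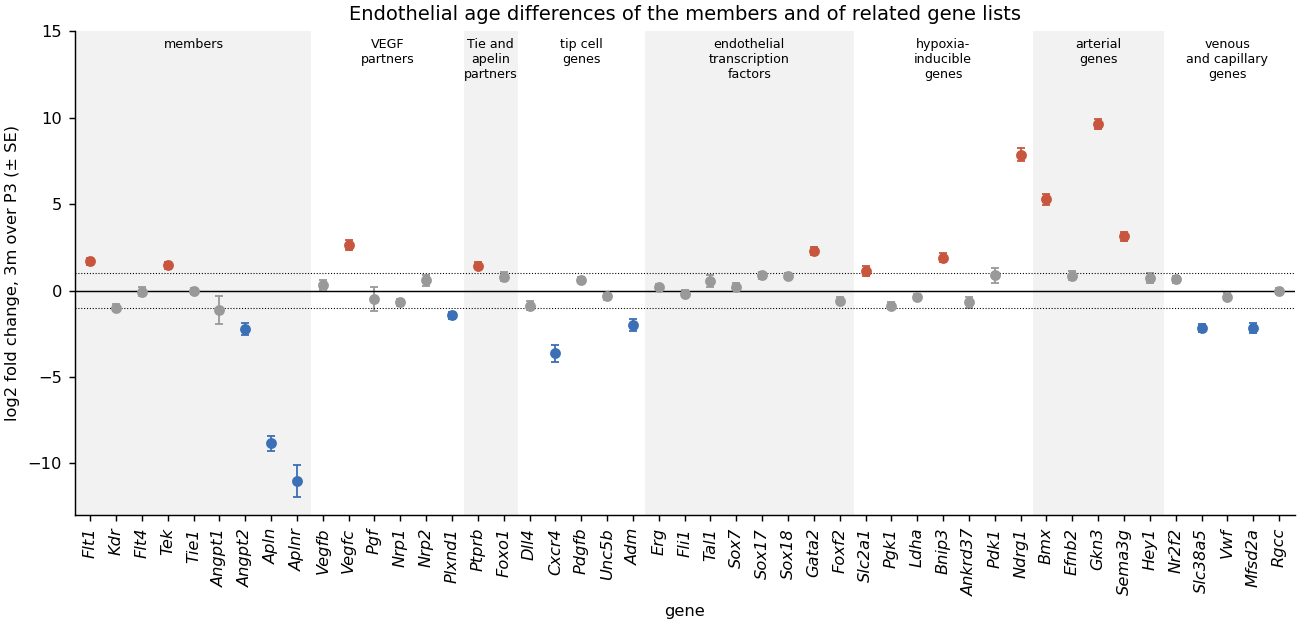
Endothelial log2FC (3m over P3, ± SE from edgeR) of the 9 tested genes and of the tested genes of 7 related lists. Red and blue points are calls, grey points were not called, and dotted lines mark a log2FC of -1 and 1. *Aplnr*, with 0 UMIs at 3m, and *Apln*, with 1, are shown at fitted values that are no bounds, and *Flt1* and *Tek* stand above the upper line.

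*Apln* differed in opposite directions between astroglia and endothelium. In 1 model over both sums with library as a block, the endothelial age effect minus the astroglial one was -13.53 for *Apln* (SE 0.37, padj = 5.72e-17 by edgeR), a fitted value that rests on 1 endothelial UMI at 3m. This SE was derived from F and understates the uncertainty of the size, since the endothelial effect alone had an SE of 0.44. Of the 10 genes *Apln* was the 1 called at a padj of at most 0.05, where 21.4% of 12767 genes tested were called and 10.0% were called in this direction. For *Vegfa* the difference was 0.03 (SE 0.46, padj = 0.98 by edgeR), with few endothelial UMIs, and its sign changed in 4 of the alternatives. *Angpt2* (-1.98, SE 1.00, padj = 0.18) and *Angpt1* (0.98, SE 1.38, padj = 0.68) were not called. The receptor genes had too few astroglial UMIs for the size of the difference to be read. Of these, *Flt1*, with 0 astroglial UMIs at 3m, had a padj of 0.056 by edgeR and passed the threshold in 5 of 10 alternatives, among them those without P3 replicate 1, 2 or 3.

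Mural cells were represented by cluster PER_6, with 628 P3 cells and 16 3m cells, whose 3m sums held 22488, 9656 and 16422 UMIs. At P3, *Angpt1* was at 40.1, 36.9 and 36.4 CPM, and its 3m counts were 1, 0 and 1 UMIs. The P3 to 3m comparison gave no call for it (log2FC -0.43, SE 1.07, padj = 0.84 by edgeR). *Flt1* was at 75.2, 42.1 and 52.4 CPM at P3, with the 8 endothelial markers at 353 to 418 summed CPM in the same sums, and had 0 UMIs at 3m (padj = 0.071 by edgeR). At this depth 3 UMIs equal 61.8 CPM, so its absence at 3m could not be told from the P3 level. *Vegfa* was at 13.2, 11.4 and 17.5 CPM at P3 and had 2, 0 and 2 UMIs at 3m (padj = 0.14 by edgeR).

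Of the 10 genes, 3 were tested in PER_6 and 0 were called by edgeR, against 11.4% of all 6329 genes tested. Over all genes, 2.39% were called higher and 8.97% lower. The unadjusted p by edgeR was 0.0098 for *Flt1*, with 0 UMIs at 3m, and 0.03 for *Vegfa*. DESeq2 called 1, *Vegfa*, on 4 UMIs in 16 3m cells, where it called 691 of 15864 genes, 519 of them higher. The 5 fibroblast markers in PER_6 were at 473 to 590 summed CPM at P3 and at 1868 to 6007 at 3m, and their part in these values was not tested. Cluster LOW_21, 68 cells of 3m that the authors left unidentified, had 19 *Flt1* UMIs, 17 of them in 3m replicate 1, 5 of *Vegfa*, 3 of *Angpt2* and 1 of *Angpt1*. Its pericyte markers summed to a mean of 45321 CPM. With its cells added to PER_6, the log2FC of *Flt1* was 0.60 and again was not called.

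At the level of whole preparations, all barcodes were summed per library. From these sums alone, fewer cells of a type and less RNA per cell cannot be told apart. Of 10 genes tested, 1 was called higher, 6 lower and 3 not called, where 34.5% of 15407 genes were called, 18.4% higher and 16.1% lower. *Vegfa* was at 73.6, 58.3 and 59.4 CPM at P3 and 146, 89.0 and 114 at 3m. The ages did not overlap (log2FC 1.06, SE 0.19, padj = 0.0013 by edgeR), but the call was lost in 5 of 12 alternatives, among them barcodes past the cell filter (0.71) and those without 3m replicate 1 (0.83) or P3 replicate 3 (1.00).

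The receptor genes *Kdr* (-1.92, padj = 0.002 by edgeR), *Flt4* (-1.51, padj = 0.011) and *Tie1* (-1.51, padj = 0.0032) fell in the whole preparations. Both angiopoietin genes fell too, *Angpt1* by 2.10 (padj = 2.68e-04 by edgeR) and *Angpt2* by 2.92 (padj = 1.23e-04) on the log2 scale. *Aplnr* had no UMI in any 3m barcode (padj = 2.41e-04 by edgeR). *Apln* was at 76.5, 43.9 and 90.9 CPM at P3 and 49.8, 45.3 and 55.0 at 3m, which overlapped (log2FC -0.29, SE 0.22, padj = 0.30 by edgeR). The summed preparation showed no call for the gene that was called in opposite directions in its astroglial and endothelial cells. *Flt1* (0.24, padj = 0.58) and *Tek* (-0.03, padj = 0.94), called higher in endothelial clusters, were not called here either. Of the shallow endothelial clusters, END_12 held 6.87% and END_13 5.60% of the cells of P3 replicate 3, while END_7 and END_17 together held 5.60 ± 1.16% of P3 and 5.50 ± 2.02% of 3m cells. Median depth was 26510 UMIs per P3 cell of END_7 and 5934 per 3m cell of END_17. The part of this depth in the falls above was not tested.

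The genes whose levels were most like those of each member were ranked by Pearson's r of log2(pooled CPM + 1) over 24 pairs of cluster and age with at least 50 cells, among 11831 genes. The points share libraries and differ in depth, so r is a description. *Flt1* was nearest to *Adgrf5* (r = 0.98), *Tek* to *Adcy4* (0.98), *Tie1* to *Robo4* (0.97) and *Flt4* to *Ccm2l* (0.99). *Kdr* was nearest to the endothelin gene *Edn1* (0.93), *Angpt2* to *Adm* (0.94) and *Aplnr* to *Ackr2* (0.98). *Vegfa* was nearest to *Cyp2j9* (0.93), followed by *Acss2* and the sterol synthesis gene *Msmo1* (0.92 and 0.91). *Angpt1* (*Rnd3*, 0.88) and *Apln* (*Htra3*, 0.81) had the lowest values among the 10.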

How the data were processed

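UMI counts of the 6 libraries were taken from the deposited table, which the authors made with Cell Ranger on the mouse genome (mm10), merging the 6 matrices without normalization. The submitters' processing notes also name Seurat 3.1.1. Cluster names, astroglial sub-clusters and pseudotime bins were taken from the authors' deposited annotation, which holds cells with more than 500 genes and a mitochondrial share below 10%. Cell types were not rebuilt, doublets were not removed, and 0 sample columns were left unused.

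Cells are not replicates, so counts were summed per library over astroglial clusters, over END_7 and END_17, over PER_6 and over all barcodes. The libraries are separate preparations of pooled animals. Sums were tested with edgeR 4.0.16 (R 4.3.3, TMM, filterByExpr, quasi-likelihood test, Benjamini-Hochberg adjustment over all genes tested, two-sided). The fits were also run on simulated data. SE was the absolute log2FC over the square root of F. DESeq2 1.42.0, RLE and no scaling beyond library totals, no filter on low genes, libraries left out, a replicate block, other cell filters and thinning were alternatives. Folds against 0 UMIs used a floor of 3 UMIs over the group, and ratios with 1 to 3 UMIs carry a 95% counting interval. Shares with a UMI after thinning are expected values.

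The 10 genes are always named, and of the related lists those in the text. The genes, lists, clusters compared and tests were chosen with earlier results of these data known. Gene symbols are those of the table.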

Additional observations from a re-analysis of the deposited data

Results flagged for a closer look

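*Apln* was the 1 result singled out, because its age differences in endothelial and astroglial cells differed by a test of the difference itself. The endothelial minus the astroglial log2FC was -13.53 (SE 0.37, padj = 5.72e-17 by edgeR), with values between -19.56 and -12.89 in 10 alternatives. The first of these is without 3m replicate 1, which held the only endothelial *Apln* UMI of 3m. As said above, the SE understates the uncertainty of the size. *Apln* was higher at 3m in 3 of 3 astroglial libraries and lower in 3 of 3 endothelial ones. In the groups of 3 libraries, no check for single outlying libraries was made.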

How the results depend on the processing

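*Vegfa* and *Apln* in astroglia and the 5 endothelial calls kept their call in every alternative in which they were tested. Among all single values of named genes, 161 of the astroglial, 454 of the endothelial, 24 of the mural, 110 of the whole-preparation and 35 of the interaction values kept direction and side of the threshold, while 2, 9, 2, 5 and 5 changed sign. The causes were not tested, except that fewer genes, cells or UMIs enter a thinned or filtered fit. At 3m, endothelial and mural sums limited what could be detected.

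In astroglia 4 genes in place of 2 were called without a filter on low genes (*Flt1* and *Angpt1* added), where 4932 of all 21345 genes were called. Thinning left 2720 calls over all genes in place of 4344. In endothelium, cells without astrocyte or pericyte marker UMIs gave 188 calls among 934 genes tested, and 2 of the 4 tested of the 10. Thinning gave 969 calls and cells with 2000 to 15000 UMIs gave 927, in place of 2286. In PER_6 the 719 calls became 426 with RLE, 380 with library totals, 417 with a replicate block and 30 after thinning, and DESeq2 called 1 of the 10. The interaction called 2 of the 10 with library totals and without AST_P3_4 and AST_P3_19 (*Apln* and *Flt1*), the latter an alternative chosen after seeing the data. Over all genes these settings called 3437 of 12767 and 2975 of 12741. With 1 library left out, calls over all genes ranged from 3234 to 4257 in astroglia, 1581 to 2317 in endothelium, 70 to 555 in PER_6, 4700 to 5587 in all barcodes and 1836 to 2606 in the interaction. Of the 10 genes, those called ranged from 2 to 3 in astroglia, 5 to 6 in endothelium, 6 to 7 in all barcodes and 1 to 2 in the interaction, and were 0 in PER_6. The difference in the share of cells lay between 22.1 and 27.2 points for *Vegfa* and between 13.9 and 16.3 for *Apln*, and without thinning it was 13.2 and 25.8.

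Values that changed sign, none of them called, were those of astroglial *Angpt2* (0.19 without GPC_8 and GPC_9, chosen after seeing the data), of endothelial *Flt4* (0.03 with library totals, 0.14 with the stricter filter, 0.21 thinned) and *Tie1* (0.06 with library totals, 0.26 without other markers, 0.03 thinned), of *Flt1* (0.60 with LOW_21) and *Angpt1* (0.14 with library totals) in PER_6, of *Tek* in all barcodes (0.38 past the filter) and of *Vegfa* in the interaction (-0.03 with RLE, -1.06 with all 4 endothelial clusters). With 1 library left out, values on both sides of 0 were those of astroglial *Angpt2* (-0.86 to 0.27), endothelial *Flt4* (-0.28 to 0.10) and *Tie1* (-0.15 to 0.03), *Flt1* (-0.03 to 0.56) and *Tek* (-0.28 to 0.27) in all barcodes, and *Vegfa* (-0.81 to 0.32) and *Angpt1* (-0.51 to 8.36) in the interaction.

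Library totals alone moved the median log2FC of all genes from -0.04 to -0.24 in astroglia, -0.03 to 0.08 in endothelium, -0.80 to -0.23 in PER_6, 0.00 to -0.19 in all barcodes and 0.05 to 0.41 in the interaction. With it, 38.6% of astroglial calls were higher in place of 49.3%, 77.2% in place of 53.1% in the interaction, and 60% in place of 21% in PER_6, where RLE gave 46%.

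Same-numbered libraries of the ages did not deviate together throughout (r between 0.04 and 0.21 in astroglia, 0.06 and 0.24 in endothelium, 0.03 and 0.08 in PER_6, 0.00 and 0.48 in all barcodes), so the numbers were not taken to pair samples. A replicate block called 4420 of 13530 genes in astroglia, 2324 of 10271 in endothelium and 5483 of 15407 in all barcodes. Of the 10 genes it called 3, 6 and 7.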

Other observations

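In the 3m oligodendrocytes, a class outside the comparisons above, *Apln* was at 32.6, 26.2 and 35.4 CPM in replicates 1, 2 and 3, which was 34.0, 28.4 and 33.4% of its astroglial level in the same library. The astrocyte genes *Slc1a2*, a glutamate transporter gene, and *Gja1*, a connexin gene, were at 3.46, 7.73 and 5.33% and at 1.35, 2.53 and 1.94% of their astroglial levels there. *Vegfa* was at 8.19, 9.49 and 7.33%. The share for *Apln* was the highest of the 4 in every library, a comparison made after the values were seen and not tested.

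*Kdr* was at 15.6, 10.8 and 12.9 CPM in the same oligodendrocytes, 4.49, 4.85 and 5.05% of its level in END_17. *Flt1*, the more abundant receptor gene of END_17 by UMIs, was at 9.0, 0.262 and 1.48 CPM, or 0.359, 0.0132 and 0.0670% of its endothelial level, and the endothelial marker *Cldn5* was at 0.318, 0 and 0.0282%. *Kdr* stood in another ratio to *Flt1* than in endothelium in each of the 3 libraries. *Aplnr* had no UMI in oligodendrocytes.

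Of the cells in cluster AST_3m_5, 17 came from P3. Their *Vegfa* was at 320 CPM from 13 UMIs and their *Apln* at 24.6 CPM from 1 UMI, where 3 UMIs equal 73.9 CPM. The 3m cells of that cluster were at 329 and 104 pooled CPM. In the oligodendrocyte precursors of 3m, 13 cells held 16 UMIs of *Vegfa* (227 CPM), against 12 UMIs in 94 P3 precursors (20.2 CPM), which is too few cells to compare by library.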
